A study of Mus musculus with 6 samples.

Results

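The genes described here encode the proteins that recognise and cut introns from messenger RNA: SR proteins, hnRNP proteins, the proteins of the small nuclear ribonucleoproteins (snRNPs) and the subunits of splicing factor 3. They were measured by RNA sequencing in RAW264.7, a mouse line with features of macrophages. Members were the rows of the deposited gene table whose symbol begins with Srsf and a digit, Sf3a or Sf3b and a digit, Snrp, Snrnp or Hnrnp, which gave 57 of 10780 genes. The symbols set 5 classes: 10 SR protein genes, 20 hnRNP genes, 11 core snRNP genes (Snrp), 7 snRNP-specific genes (Snrnp) and 9 genes of splicing factor 3 (Sf3a and Sf3b). The name core follows the symbol only: the class also holds Snrpa, Snrpc, Snrpa1 and Snrpb2, whose products belong to the U1 or U2 particle. All 57 passed the filter on low values, 1 FPKM (fragments per length of transcript and size of library) in at least 2 libraries, as did 10014 genes in all.

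Splicing is carried out by the spliceosome, in which snRNPs built of a small RNA, a shared ring of Sm proteins and particle-specific proteins pair with the ends of an intron and with its branch point. SR proteins bind mostly exons through their RNA recognition motifs and recruit the spliceosome through arginine- and serine-rich tails, while hnRNP proteins coat nascent RNA and often oppose the use of nearby splice sites. Many SR protein and hnRNP genes carry exons whose inclusion sends the transcript to nonsense-mediated decay, by which the proteins limit their own levels. In macrophages, splicing bears on how fast and in which form inflammatory transcripts appear.

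The samples formed 3 groups of 2 libraries each, numbered replicate 2 and replicate 3. Control cells were untreated, a further group received lipopolysaccharide (LPS, an outer membrane glycolipid of bacteria that macrophages sense) at 10 ng/ml, and the last was given LPS at 10 ng/ml together with Sal-B at 50 μmol/L. No group had Sal-B without LPS, all groups were 1 cell line, and the treatment time and the full name of Sal-B are not given in the sources used here. Nothing in the labels shows that replicates came from separate cultures. The p-values below measure only the spread between these libraries, which may be technical. Where each treated pair was averaged to 1 sample, that spread came from the 2 control libraries alone. Values given "with Sal-B added" are those of the LPS plus Sal-B libraries, and values of a group are given with replicate 2 before replicate 3.

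The libraries differed in ways that touch every value below. The total of FPKM in a library lay between 309767 and 374371, and read depth is not known. The median of the tested genes was 7.57 and 7.35 FPKM in control, 5.28 and 5.21 in LPS and 4.36 and 4.47 with Sal-B added, so each result is given as deposited and after scaling every library to the same median. Mitochondrially encoded genes took 29.1% and 30.7% of the FPKM total in control, 18.1% and 18.8% in LPS and 26.0% and 25.0% in LPS plus Sal-B. Replicates differed most in control, where the SD of their log2 difference across genes was 0.44, against 0.27 in LPS and 0.19 with Sal-B added. Of 10 macrophage markers 9 were among the genes analysed, and their summed level was 1944 and 1459 FPKM in control, 1620 and 1620 in LPS and 756 and 771 with Sal-B added. Cd68 and Lyz2 were the largest parts of the control sums, and Itgam was counted on 2 rows. In LPS Cd68, Cd14 and Msr1 were above both controls, and Csf1r, Fcgr1, Lyz2 and Itgam below both. Spi1 and Adgre1 overlapped the controls. The part of this marker change in the results was not tested. None of 6 fibroblast, 7 lymphocyte and 5 epithelial markers was among the genes analysed. The summed level of 6 LPS response genes, Nos2, Tnf, Irf7, Il1b, Ptgs2 and Ccl5, went from 57.9 and 38.4 FPKM in control to 3924 and 4008 in LPS and was 1513 and 1549 in LPS plus Sal-B. Ccl5 made up most of the LPS sums, at 2591 and 2689 FPKM. With Sal-B added Nos2 was higher than in LPS, 125 and 127 against 101 and 97.1 FPKM, and the other genes were lower. In such bulk samples fewer transcripts per cell and fewer cells that make them cannot be told apart.

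The members differed widely in level. The hnRNP genes had the broadest range of mean FPKM over the 6 libraries, 5.44 (Hnrnpr) to 360 (Hnrnpa1), a 66.2-fold span around a median of 28.4. Hnrnpa1, which promotes exon skipping, was followed in its class by Hnrnpab at 134 and Hnrnpa3 at 122 FPKM. The core snRNP genes had the highest class median, 45.8 FPKM, and were led by the Sm ring genes Snrpd1 (236), Snrpf (179) and Snrpg (86.9). The 7 Sm ring genes Snrpb, Snrpd1, Snrpd2, Snrpd3, Snrpe, Snrpf and Snrpg, whose products sit in the same ring, differed 9.96-fold in FPKM, from 23.8 (Snrpd2) to 236 (Snrpd1). The SR protein genes ran from 13.7 to 64.3 FPKM, with Srsf2, Srsf11 and Srsf5 on top at 64.3, 37.9 and 26.9. Genes of splicing factor 3 ran from 12.0 to 59.7, led by Sf3b4 (59.7), Sf3b2 (55.0) and Sf3a2 (30.4). The snRNP-specific class had the lowest median, 8.51 FPKM, but held Snrnp27 at 96.9, with Snrnp70 at 13.7 and Snrnp48 at 11.5 next. The median over all genes tested was 6.02 FPKM.

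**Figure D1:**
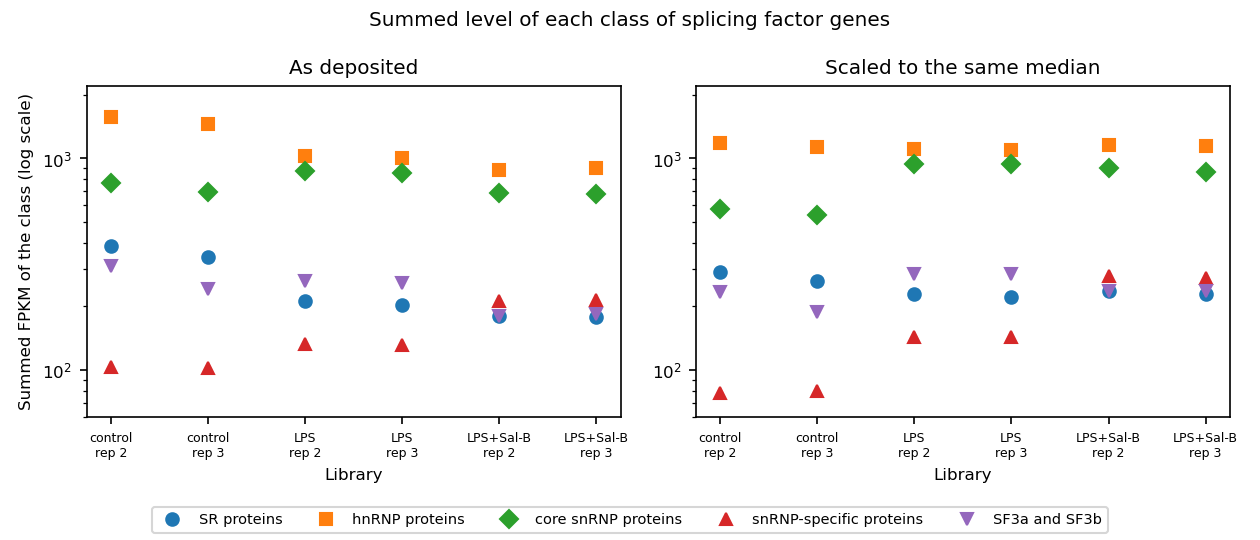
Summed FPKM of the members of each class (y axis, log scale) in each of the 6 libraries (x axis), as deposited on the left and scaled to the same median on the right; each point is 1 library. As deposited, the SR protein sum lies at 387 and 342 in control and at 213 and 203 in LPS, while the snRNP-specific sum rises from 104 and 102 in control to 213 and 214 in LPS plus Sal-B.

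Summed over a class, as the plot of class sums shows, the SR protein genes went from 387 and 342 FPKM in control to 213 and 203 in LPS and 181 and 179 with Sal-B added. The hnRNP sum was 1567 and 1453 FPKM in control, 1026 and 1004 in LPS and 887 and 900 with Sal-B added, and after scaling to the same median it kept within 1101 and 1181 in all 6 libraries. The core snRNP sum after that scaling was 575 and 542 in control, 943 and 940 in LPS and 897 and 868 with Sal-B added. Control and treated libraries thus did not overlap in the scaled core snRNP sum. As deposited it was 763 and 698 in control, 873 and 857 in LPS and 685 and 680 with Sal-B added. The snRNP-specific sum rested on a single gene, Snrnp27, in LPS plus Sal-B: 163 of 213 FPKM in replicate 2 and 163 of 214 in replicate 3.

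The comparison of LPS with control asks which splicing factor transcripts LPS changed. Of 10 SR protein genes 8 fell and none rose as deposited, and 5 fell and 2, Srsf9 and Srsf11, rose at the same median; the median log2 fold change of the core snRNP genes was above 0 on 3 of the 4 scales tried, the exception being a scaling to the same total without mitochondrially encoded genes. As deposited 12 of 20 hnRNP genes also fell, and 1 rose (limma across all genes tested, Benjamini-Hochberg adjusted p under 0.05). Of 11 core snRNP genes 5 rose and none fell by limma, 0 also at an unadjusted p under 0.05. Of the snRNP-specific genes 2 rose and 2 fell, and of the genes of splicing factor 3 2 rose and 2 fell. Together 10 members rose and 24 fell, where 14.2% of all genes tested rose and 48.9% fell. On the same-median scale 23 members rose and 13 fell, beside 28.9% and 26.4% of all genes tested: 10 of 11 core snRNP genes, 4 of 7 snRNP-specific genes, 3 of 9 genes of splicing factor 3, 4 hnRNP and 2 SR protein genes rose, and 5 SR protein, 7 hnRNP and 1 snRNP-specific genes fell. On both scales alike 10 members rose and 13 fell. The share of all genes tested that did so on both scales is not given here, so this count has no background.

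Class medians of the log2 fold change, which is taken on log2(FPKM + 1) and understates the change of low genes, were -0.75 for SR protein genes, -0.62 for hnRNP genes, 0.23 for core snRNP genes, 0.03 for snRNP-specific genes and -0.25 for splicing factor 3 as deposited, where the median of all genes tested was -0.40. Scaled to the same median, they were -0.26, -0.12, 0.74, 0.47 and 0.24, against 0.01 for all genes tested. SR protein genes were lowest and core snRNP genes highest on these 2 scales. The scales differ by 1 factor per library, so the like order of the classes was nearly fixed in advance. Quantile normalization gave medians of -0.68 for SR protein and 0.30 for core snRNP genes, and there the snRNP-specific genes were highest at 0.47. With every library scaled to the same total without mitochondrially encoded genes, the core snRNP median turned to -0.17, with 2 genes higher and 3 lower. There the SR protein median was -1.13, against -0.73 for all 10014 genes tested, of which 789 rose and 6771 fell.

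**Figure D2:**
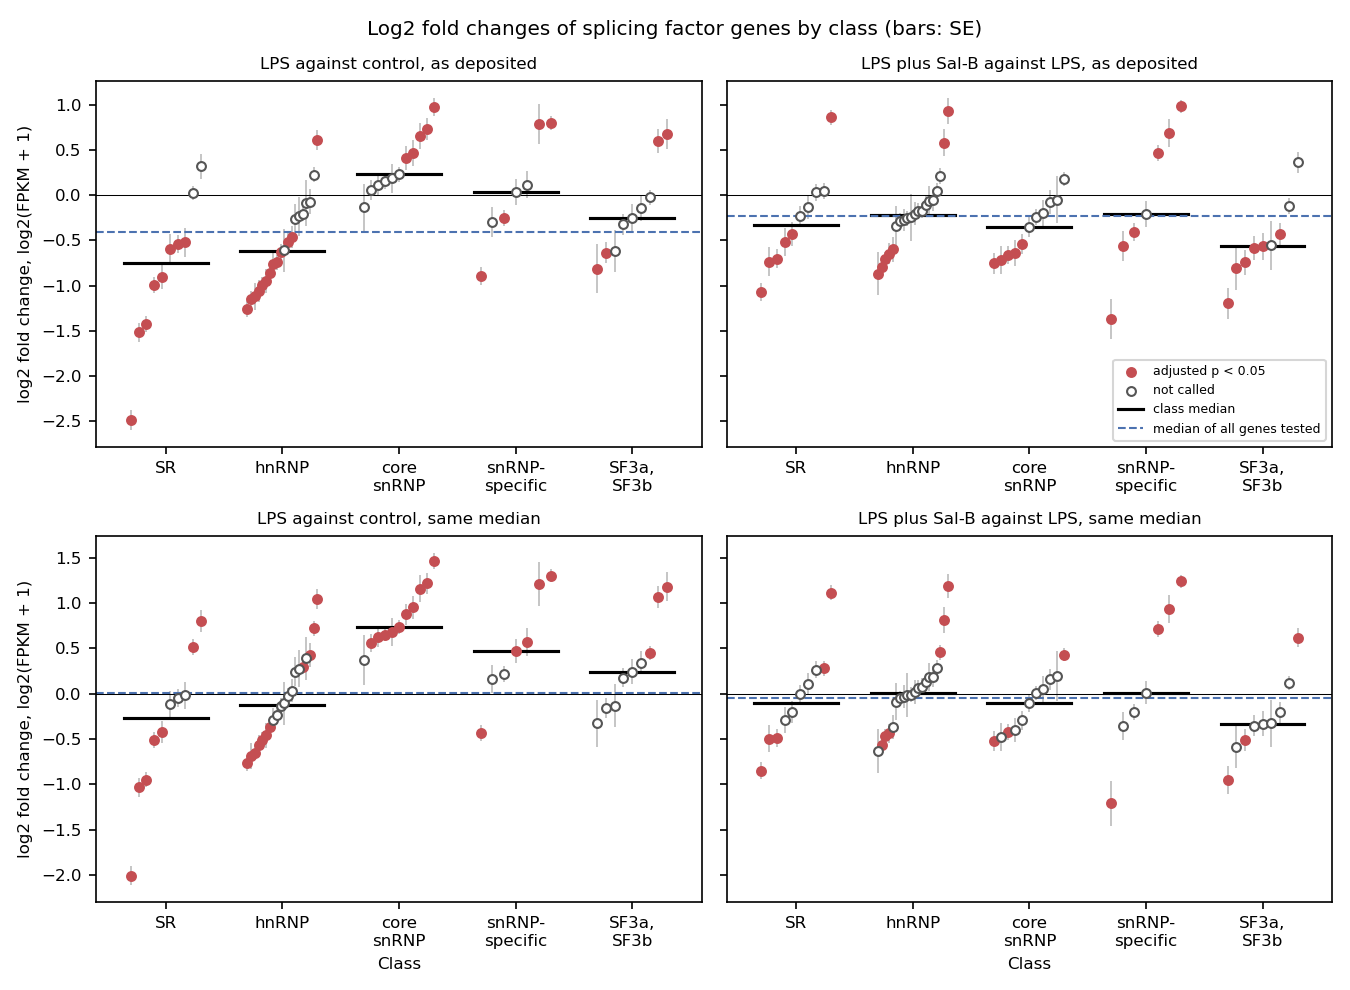
Log2 fold changes on log2(FPKM + 1) (y axis) of the 57 members by class (x axis) for LPS against control (left) and LPS plus Sal-B against LPS (right), as deposited (top) and at the same median (bottom); each point is a gene with its SE, filled where the limma adjusted p was under 0.05, with the class median as a black line and the median of all genes tested as a dashed line. In LPS against control the SR protein median lies below the dashed line and the core snRNP median above it on both scales, -0.75 and 0.23 beside -0.40 as deposited.

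Srsf5, an SR protein gene, changed most of all members in LPS against control. It stood at 60.9 and 63.0 FPKM in control, 11.1 and 9.24 in LPS and 8.33 and 8.65 with Sal-B added. Every treated library was far below both controls. The log2 fold change in LPS was -2.50 ± 0.11 (SE; limma, adjusted p = 0.000145), and -2.01 at the same median (adjusted p = 0.000186). Of its 50-base windows, 27.8% also occur in 1 pseudogene, so reads may be shared with it. Srsf6 was at 31.2 and 29.6 FPKM in control, 9.32 and 10.7 in LPS and 5.50 and 6.02 with Sal-B added, and fell by 1.52 ± 0.11 on the log2 scale in LPS (adjusted p = 0.00034). Srsf1, the founding member of the family, was at 26.5 and 26.6 FPKM in control, 9.37 and 9.11 in LPS and 9.38 and 9.83 with Sal-B added, and fell by 1.43 ± 0.084 (adjusted p = 0.000256). Srsf10, known as a splicing repressor when dephosphorylated, was at 22.1 and 21.8 FPKM in control, 11.0 and 10.0 in LPS and 11.1 and 10.5 with Sal-B added, and fell by 0.99 ± 0.093 (adjusted p = 0.000632). As deposited, Srsf1 and Srsf10 thus lay at a like level in all 4 treated libraries, while Srsf6 was lower again with Sal-B. These 4 genes also fell at the same median (-2.01, -1.03, -0.95 and -0.51) and kept their calls with any single library left out. With each treated pair averaged to 1 sample, Srsf5, Srsf6 and Srsf1 kept theirs as deposited (adjusted p = 0.034, 0.0373 and 0.0381), and at the same median Srsf5 did (adjusted p = 0.0217). Of the other SR protein genes, Srsf3 fell on both scales (log2 fold change -0.91 as deposited), Srsf4, Srsf7 and Srsf2 fell as deposited but had values of -0.11, -0.05 and -0.02 at the same median, and Srsf9 and Srsf11, at 0.32 and 0.03 as deposited, rose at the same median (0.81 and 0.52). With 1 library left out the adjusted p reached 0.156 for Srsf3 at the same median and 0.102 for Srsf4 and 0.148 for Srsf2 as deposited.

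Core snRNP genes that rose on both scales included Snrpd2, Snrpg and Snrpb of the Sm ring, Snrpa1, whose product belongs to the U2 particle, and Snrpc, whose product belongs to the U1 particle. Snrpd2 was at 17.6 and 15.5 FPKM in control, 33.5 and 33.9 in LPS and 21.5 and 20.5 with Sal-B added. Its LPS libraries were above all others, and the log2 fold change was 0.98 ± 0.096 (limma, adjusted p = 0.000717). Snrpa1 was at 15.1 and 12.7 FPKM in control, 22.6 and 25.2 in LPS and 13.1 and 14.4 with Sal-B added, with a log2 fold change of 0.74 ± 0.12 (adjusted p = 0.00374). As deposited, the LPS plus Sal-B libraries of Snrpa1 lay within the control values. At the same median they were at 17.1 and 18.4, above the 11.4 and 9.87 of control. Snrpg was at 56.9 and 75.4 FPKM in control, 107 and 102 in LPS and 88.9 and 92.3 with Sal-B added (0.66 ± 0.14, adjusted p = 0.0101). Snrpb was at 27.1 and 20.6 FPKM in control, 32.9 and 33.2 in LPS and 19.8 and 22.0 with Sal-B added (0.47 ± 0.15, adjusted p = 0.0348). As deposited, Snrpg lost its call without LPS replicate 2 or 3 (adjusted p = 0.0642 and 0.0503), and Snrpb without LPS replicate 2 or 3 (0.123 and 0.134) or LPS plus Sal-B replicate 2 or 3 (0.067 and 0.0671), and with any 1 of these 4 libraries left out Snrpc lost its own (up to 0.131). After scaling to the same median Snrpd2, Snrpa1, Snrpg and Snrpb rose by 1.46, 1.22, 1.16 and 0.95. With treated pairs averaged, none of the 4 was called as deposited, and Snrpd2 and Snrpa1 were called at the same median (adjusted p = 0.0325 and 0.0454). Windows shared with other genes were 18.1% in Snrpg, 11.7% in Snrpd2 and 8.34% in Snrpa1.

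Of the snRNP-specific genes, Snrnp27, whose product joins the U4/U6.U5 tri-snRNP, was at 45.8 and 46.7 FPKM in control, 81.7 and 81.2 in LPS and 163 and 163 with Sal-B added. The 3 groups were wide apart and the replicates close together. Its log2 fold change in LPS was 0.80 ± 0.073 as deposited (limma, adjusted p = 0.000595) and 1.30 at the same median (adjusted p = 0.00022), and at the same median it kept its call with treated pairs averaged (adjusted p = 0.0393). Snrnp35, a protein gene of the U11/U12 particle that handles minor introns, was at 4.15 and 4.50 FPKM in control, 8.43 and 8.01 in LPS and 3.49 and 1.82 with Sal-B added. It rose by 0.79 ± 0.22 in LPS (adjusted p = 0.0254), but lost this call without control replicate 2 or 3 (adjusted p = 0.0771 and 0.0565) or LPS replicate 2 or 3 (0.107 and 0.0907), and at the same median without LPS replicate 2 (0.0536). Snrnp200, the helicase that unwinds the U4 and U6 RNAs, was at 14.2 and 13.2 FPKM in control, 6.90 and 6.87 in LPS and 4.69 and 5.20 with Sal-B added, and fell by 0.90 ± 0.098 (adjusted p = 0.00099). At the same median it fell by 0.43 (adjusted p = 0.00989), a call lost without LPS replicate 2 or 3 (0.0547 and 0.0517).

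The promoters of 4 members that stood out by size of change are shown because their transcripts moved in opposite directions: Srsf5 (chr12:80945249-80945498, plus strand) and Srsf6 (chr2:162931258-162931507, plus strand) fell in LPS, and Snrpd2 (chr7:19149588-19149837, plus strand) and Snrnp27 (chr6:86684492-86684741, minus strand) rose. Each is the 250 bases before the start in RefSeq, build GRCm38.p6, read 5′ to 3′ on the gene's strand. Capitals mark matches on either strand to GGGCGG, the GC box bound by Sp1, or CCGGAAG, a core bound by ETS factors.
Srsf5: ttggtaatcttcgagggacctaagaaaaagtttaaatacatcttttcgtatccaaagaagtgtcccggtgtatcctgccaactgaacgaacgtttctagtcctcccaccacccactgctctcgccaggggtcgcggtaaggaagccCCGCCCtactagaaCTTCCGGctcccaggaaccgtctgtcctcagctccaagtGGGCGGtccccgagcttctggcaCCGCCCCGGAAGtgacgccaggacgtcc
Srsf6: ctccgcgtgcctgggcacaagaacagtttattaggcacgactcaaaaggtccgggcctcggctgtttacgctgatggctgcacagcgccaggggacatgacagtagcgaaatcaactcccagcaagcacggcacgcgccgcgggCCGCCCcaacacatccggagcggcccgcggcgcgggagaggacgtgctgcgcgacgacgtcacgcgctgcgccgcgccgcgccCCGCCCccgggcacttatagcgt
Snrpd2: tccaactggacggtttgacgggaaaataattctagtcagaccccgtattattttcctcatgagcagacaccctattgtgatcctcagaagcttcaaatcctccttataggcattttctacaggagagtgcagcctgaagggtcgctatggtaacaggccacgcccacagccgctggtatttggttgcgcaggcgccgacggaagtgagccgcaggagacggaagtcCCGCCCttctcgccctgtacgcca
Snrnp27: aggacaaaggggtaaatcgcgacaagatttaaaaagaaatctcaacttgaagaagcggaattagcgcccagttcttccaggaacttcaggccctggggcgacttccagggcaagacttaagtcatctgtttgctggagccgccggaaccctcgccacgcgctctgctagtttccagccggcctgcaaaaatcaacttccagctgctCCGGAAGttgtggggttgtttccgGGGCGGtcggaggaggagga
The Srsf5 window held 3 GC boxes and 2 ETS cores, of which the last pair overlap, the Srsf6 window 2 GC boxes, the Snrpd2 window 1 GC box and the Snrnp27 window 1 of each. In the deposited table Snrpd2 starts at 19149722 and Snrnp27, on the minus strand, at 86684522. By those coordinates the 3′ part of both windows, with the GC box of each, lies inside the gene. RefSeq promoters were matched for 50 of the 57 members. Of these 17 (34%) held CCGGAAG, against 15.9% of 7886 promoters of tested genes and 7.05% of 27025 promoters in all, and 36 (72%) held GGGCGG, against 61.3% and 32.9%. By class CCGGAAG was in 6 of 7 promoters of splicing factor 3, 4 of 10 SR protein, 3 of 9 core snRNP, 2 of 6 snRNP-specific and 2 of 18 hnRNP promoters. CCAAT, the CCAAT box, was in 21 (42%, against 37.6% of promoters of tested genes), CACGTG, the E-box, in 3 (6%, against 8.91%), and AAGATGGC, which YY1 binds, in 1 (2%, against 2.22%). The core of the interferon-stimulated response element was in none of the 50 windows, against 2.78% of promoters of tested genes. These letter matches describe the windows and do not show binding.

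**Figure D3:**
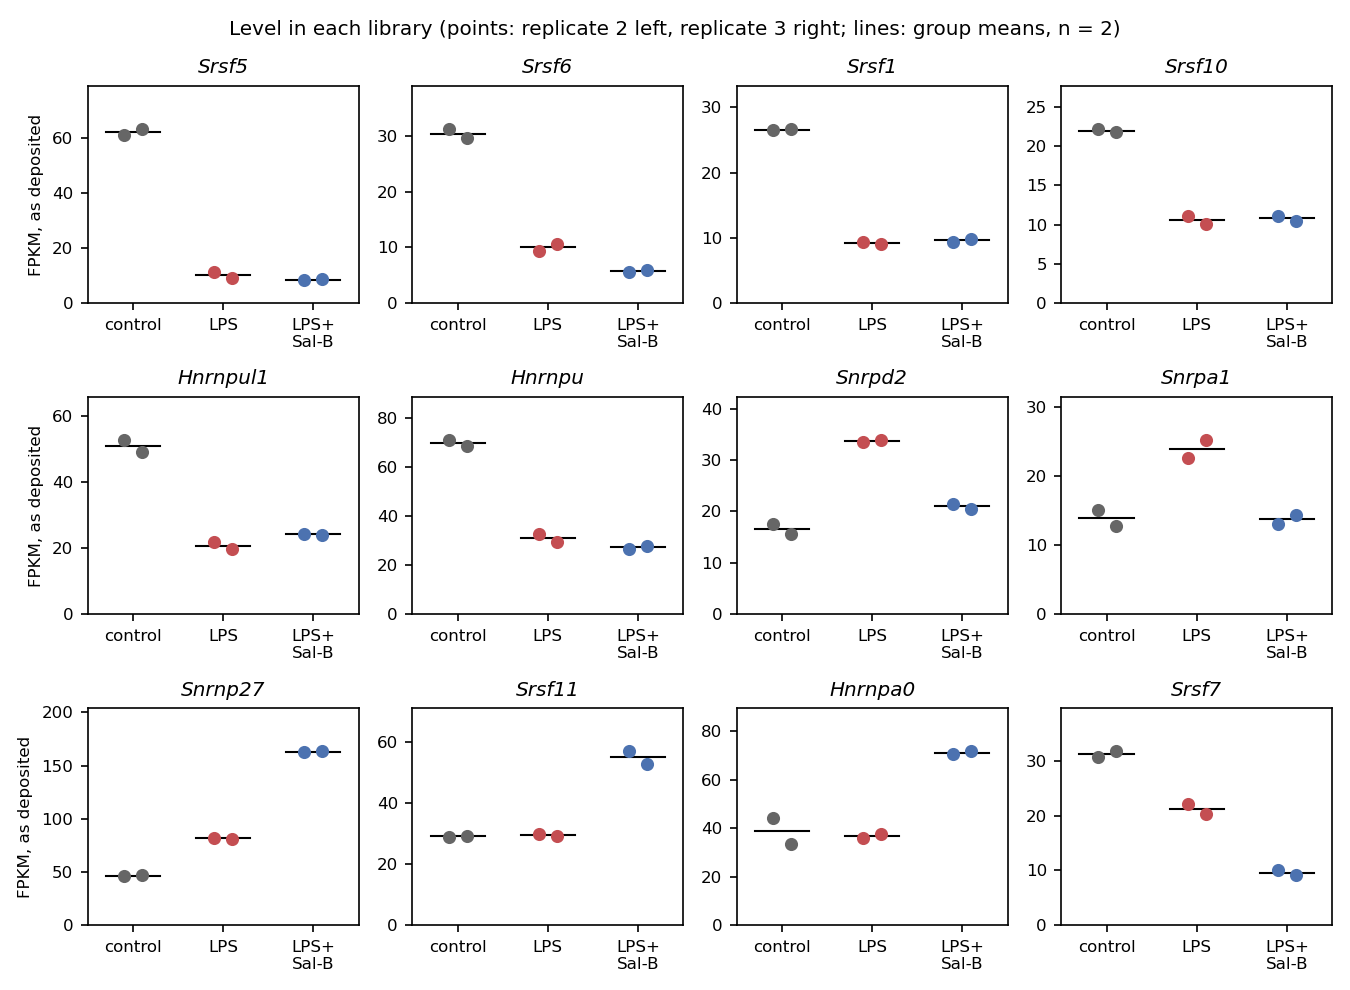
FPKM as deposited (y axis, from 0) in the 2 libraries of each group (x axis) for 12 members; points are libraries and lines are group means. Srsf5, Srsf6, Srsf1 and Srsf10 lie lower in all treated libraries, Snrpd2 and Snrpa1 peak in LPS, and Snrnp27, Srsf11 and Hnrnpa0 are highest in LPS plus Sal-B (163, 57.0 and 71.8 FPKM at most).

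The hnRNP genes fell more often than they rose in LPS. Hnrnpul1, whose product binds RNA and sites of DNA damage, was at 52.6 and 49.1 FPKM in control, 21.7 and 19.6 in LPS and 24.2 and 24.0 with Sal-B added, and fell by 1.26 ± 0.092 (limma, adjusted p = 0.000379). Hnrnpu, which holds chromatin-bound RNA and is also called scaffold attachment factor A, was at 70.8 and 68.3 FPKM in control, 32.5 and 29.2 in LPS and 26.6 and 27.9 with Sal-B added, and fell by 1.15 ± 0.092 (adjusted p = 0.000436). Treated libraries of both genes were all below the controls. Hnrnpr was at 9.18 and 6.87 FPKM in control, 2.87 and 3.38 in LPS and 5.13 and 5.23 with Sal-B added, and fell by 1.12 ± 0.15 (adjusted p = 0.002), a call lost at the same median without LPS replicate 2 (0.061). Hnrnpll, known for its role in the splicing of the CD45 gene in lymphocytes, went the other way, from 5.92 and 5.67 FPKM in control to 9.14 and 9.68 in LPS and 5.12 and 6.20 with Sal-B added, a log2 fold change of 0.62 ± 0.12 (adjusted p = 0.00606). As deposited, the LPS libraries alone stood out. At the same median Hnrnpll was at 4.46 and 4.40 in control, 9.87 and 10.6 in LPS and 6.70 and 7.92 with Sal-B added. Scaled to the same median, the 3 falls were -0.77, -0.65 and -0.69 and the rise 1.05. With treated pairs averaged, Hnrnpul1 and Hnrnpu kept their calls as deposited (adjusted p = 0.0423 and 0.0467). Hnrnpm, Hnrnpul2, Hnrnph1 and Hnrnph2 fell on both scales too, with log2 fold changes from -1.06 to -0.86 as deposited, and with 1 library left out the adjusted p at the same median reached 0.0568 for Hnrnpm, 0.16 for Hnrnph1 and 0.0814 for Hnrnph2. Hnrnpa1, the most abundant member, fell from 484 and 532 FPKM in control to 304 and 303 in LPS (-0.74 ± 0.083, adjusted p = 0.00106), but had -0.23 at the same median (adjusted p = 0.0745), and 46.4% of its windows also occur in other genes, mostly pseudogenes.

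Splicing factor 3 binds the branch point as part of the U2 particle. Its Sf3b4 was at 64.4 and 44.9 FPKM in control, 87.6 and 86.3 in LPS and 36.6 and 38.2 with Sal-B added, and rose by 0.68 ± 0.17 in LPS (limma, adjusted p = 0.017). Sf3b5 was at 11.4 and 8.82 FPKM in control, 15.6 and 15.9 in LPS and 9.97 and 10.5 with Sal-B added, and rose by 0.60 ± 0.13 (adjusted p = 0.0105). Both were highest in the LPS libraries. As deposited both calls were lost without LPS replicate 2 or 3, with adjusted p of 0.0825 and 0.078 for Sf3b4 and 0.0539 and 0.0594 for Sf3b5, and they held at the same median (1.18 and 1.07). Of the windows of Sf3b4, 49.3% also occur in a pseudogene. As deposited Sf3a1 and Sf3a3 fell (-0.63 and -0.81), and at the same median they had -0.16 and -0.33. The call of Sf3a3 was lost with any 1 of the 4 LPS and LPS plus Sal-B libraries left out (up to 0.152).

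The comparison of LPS plus Sal-B with LPS asks which transcripts differed when Sal-B was present; it shares the LPS libraries with the comparison above, so their values are given side by side and were not set against each other by a test. Snrnp27, Srsf11 and Hnrnpa0 rose, and 6 of 9 genes of splicing factor 3 and 4 of 7 Sm ring genes fell as deposited, while at the same median 2 of 9 and 1 of 7 did. As deposited 6 members rose and 24 fell, where 10.5% of all genes tested rose and 31.8% fell. After scaling to the same median 10 rose and 11 fell, beside 17.6% and 20.2%. By class, as deposited, 1 SR protein, 2 hnRNP and 3 snRNP-specific genes rose, and 5 SR protein, 5 hnRNP, 5 core snRNP, 3 snRNP-specific and 6 splicing factor 3 genes fell. On the same-median scale 2 SR protein, 3 hnRNP, 1 core snRNP, 3 snRNP-specific and 1 splicing factor 3 genes rose, and 3, 3, 2, 1 and 2 fell. The class medians as deposited were -0.33, -0.22, -0.35, -0.20 and -0.57, against -0.22 for all genes tested. At the same median they were -0.10, 0.01, -0.10, 0.01 and -0.33, against -0.05. With each treated pair averaged to 1 sample, all spread in the model came from the control libraries. Neither group of this comparison then had a spread of its own, so that fit cannot decide which members differed.

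Snrnp27 was 1.99-fold higher with Sal-B as deposited, a log2 fold change of 0.99 ± 0.073 (limma, adjusted p = 0.00174), and had 1.24 at the same median (adjusted p = 0.00106). Srsf11, an SR-related protein gene whose product meets the factor that binds the 3′ splice site, was at 28.9 and 29.3 FPKM in control, 30.0 and 29.3 in LPS and 57.0 and 53.1 with Sal-B added. As deposited, control and LPS libraries lay together and both Sal-B libraries far above them. Its log2 fold change was 0.87 ± 0.083 (adjusted p = 0.00214) and 1.12 at the same median (adjusted p = 0.00159). Srsf7 went the other way, with 30.7 and 31.7 FPKM in control, 22.2 and 20.2 in LPS and 10.0 and 9.12 with Sal-B added (-1.07 ± 0.097, adjusted p = 0.00205). Snrnp27, Srsf11 and Srsf7 kept their calls on both scales with any single library left out. Srsf6 fell by 0.70 ± 0.11 (adjusted p = 0.006). Srsf2, whose product marks nuclear speckles, was at 107 and 77.1 FPKM in control, 64.8 and 61.5 in LPS and 37.4 and 37.5 with Sal-B added, and fell by 0.74 ± 0.16 (adjusted p = 0.0173). As deposited Srsf6 lost its call without LPS plus Sal-B replicate 2 (0.0655), and Srsf2 without LPS replicate 2 or 3 (0.0979 and 0.0796) or LPS plus Sal-B replicate 2 or 3 (0.0994 and 0.0931). After scaling to the same median Srsf6 lost it without LPS replicate 3 or LPS plus Sal-B replicate 2 or 3 (0.0876, 0.126 and 0.0909), and Srsf2 with any 1 of the 4 LPS and LPS plus Sal-B libraries left out (0.153 to 0.189). Genes Mettl23 and Mfsd11 overlap Srsf2 on the other strand. Srsf5, Srsf1 and Srsf10, lowered in LPS, had log2 fold changes of -0.23, 0.05 and 0.04 with Sal-B as deposited, none past the threshold. At the same median they had -0.01, 0.28 and 0.27, and there Srsf1 was called (limma, adjusted p = 0.0406). That call was lost with any 1 of the 4 LPS and LPS plus Sal-B libraries left out.

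Among hnRNP genes, Hnrnpa0, whose product binds AU-rich elements of inflammatory transcripts, was at 44.4 and 33.5 FPKM in control, 35.8 and 37.6 in LPS and 70.8 and 71.8 with Sal-B added. As deposited, control and LPS overlapped and the Sal-B libraries stood above. Its log2 fold change with Sal-B was 0.94 ± 0.14 (limma, adjusted p = 0.00607), lost without LPS plus Sal-B replicate 2 or 3 as deposited (0.0552 and 0.0522), and 1.19 at the same median (adjusted p = 0.00293). Hnrnpr rose by 0.59 ± 0.15 (adjusted p = 0.029). Its call was lost as deposited without LPS replicate 2 or 3 or LPS plus Sal-B replicate 2 or 3 (0.142, 0.0791, 0.136 and 0.142), and at the same median without LPS replicate 2 or LPS plus Sal-B replicate 2 or 3 (0.0638, 0.0754 and 0.0738). Hnrnpk, which binds cytosine-rich RNA, was at 43.6 and 40.8 FPKM in control, 26.8 and 27.2 in LPS and 15.8 and 14.5 with Sal-B added, and fell by 0.79 ± 0.09 (adjusted p = 0.003). Hnrnpdl, a relative of the AU-rich element binder Hnrnpd, was at 29.3 and 30.4 FPKM in control, 34.1 and 36.3 in LPS and 20.8 and 21.5 with Sal-B added, and fell by 0.71 ± 0.084 (adjusted p = 0.00337). On the same-median scale Hnrnpk fell by 0.56 and Hnrnpdl by 0.47. There Hnrnpk lost its call without LPS replicate 3 or LPS plus Sal-B replicate 2 or 3 (0.0562, 0.0509 and 0.0768), and Hnrnpdl without LPS replicate 2 or 3 or LPS plus Sal-B replicate 2 or 3 (0.0502, 0.0743, 0.0973 and 0.0894). Of the windows of Hnrnpk, 34.5% also occur in pseudogenes.

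Snrnp48 and Snrnp35, both of the U11/U12 particle, moved apart with Sal-B. Snrnp48 was at 7.41 and 10.2 FPKM in control, 9.74 and 9.39 in LPS and 16.1 and 16.0 with Sal-B added, a log2 fold change of 0.69 ± 0.15 (limma, adjusted p = 0.0172), while Snrnp35 fell by 1.38 ± 0.22 (adjusted p = 0.00738). The LPS plus Sal-B replicates of Snrnp35 themselves differed, at 3.49 and 1.82 FPKM. Snrnp70, the main U1-specific protein gene, was at 13.4 and 13.9 FPKM in control, 11.0 and 11.6 in LPS and 15.8 and 16.4 with Sal-B added (0.47 ± 0.087, adjusted p = 0.0105). Scaled to the same median, the values were 0.93, -1.21 and 0.71. As deposited Snrnp48 and Snrnp70 lost their calls without LPS replicate 2 or 3 or LPS plus Sal-B replicate 2 or 3, with adjusted p of 0.0813 to 0.103 and of 0.0528 to 0.0992, and Snrnp35 without LPS replicate 2 (0.0528). At the same median Snrnp48 lost its call with any 1 of these 4 libraries left out (0.055 to 0.067) and Snrnp35 without LPS replicate 2 or 3 (0.081 and 0.0746).

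Snrpa1 and Snrpd2, raised in LPS, fell with Sal-B by 0.76 ± 0.12 and 0.66 ± 0.096 (limma, adjusted p = 0.00715 and 0.00556), and of splicing factor 3 Sf3b4 fell by 1.20 ± 0.17 (adjusted p = 0.0053). Sf3b6, whose product touches the branch point adenosine, was at 29.6 and 23.0 FPKM in control, 24.1 and 22.9 in LPS and 14.1 and 13.2 with Sal-B added, and fell by 0.74 ± 0.14 (adjusted p = 0.0103). On the same-median scale these falls were -0.52, -0.42, -0.95 and -0.51. Each of these 4 calls was lost in some fit without 1 library, which has fewer residual degrees of freedom. At the same median such fits gave log2 fold changes of -0.61 to -0.44 for Snrpa1 and -0.47 to -0.37 for Snrpd2. They gave -0.97 to -0.94 for Sf3b4 and -0.57 to -0.45 for Sf3b6. As deposited the adjusted p rose for Snrpa1 to 0.0528 without LPS replicate 3 and to 0.0698 when LPS plus Sal-B replicate 2 was left out, to 0.0554 and 0.0586 without LPS plus Sal-B replicate 2 or 3 for Snrpd2, to 0.051 without LPS plus Sal-B replicate 2 for Sf3b4, and to between 0.056 and 0.0783 for Sf3b6 with any 1 of the 4 LPS and LPS plus Sal-B libraries left out. Scaled to the same median, each lost its call with any 1 of those 4 libraries left out, with adjusted p of 0.0553 to 0.128 for Snrpa1, 0.084 to 0.143 for Snrpd2, 0.0565 to 0.0639 for Sf3b4 and 0.103 to 0.161 for Sf3b6.

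LPS plus Sal-B against control combines both agents and shares its libraries with the comparisons above. Of 10 SR protein genes 8 fell as deposited and 6 at the same median, while Srsf11 rose on both scales (0.90 and 1.63) and Srsf9 at the same median (0.92). As deposited 7 members rose and 33 fell, where 14% of all genes tested rose and 58.8% fell. After scaling to the same median 22 rose and 16 fell, beside 31.7% and 32%. As deposited 15 of 20 hnRNP and 6 of 9 splicing factor 3 genes fell, and 3 of 11 core snRNP genes rose and 2 fell. At the same median 9 of 11 core snRNP genes rose and none fell by limma, 0 also at an unadjusted p under 0.05. Hnrnpdl, Hnrnpa2b1 and Snrpd1 changed direction with the scale: they fell as deposited (-0.48, -0.46 and -0.43) and rose at the same median (0.25, 0.28 and 0.33), where each call was lost with any 1 of the 4 LPS and LPS plus Sal-B libraries left out (up to 0.211, 0.15 and 0.155); as deposited Snrpd1 lost its own without LPS plus Sal-B replicate 2 or 3 (up to 0.0912). The class medians as deposited were -1.30 for SR protein, -0.82 for hnRNP, -0.01 for core snRNP, -0.17 for snRNP-specific and -0.82 for splicing factor 3 genes, against -0.63 for all genes tested. Scaled to the same median, they were -0.57, -0.08, 0.69, 0.49 and -0.08, against -0.02.

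In this comparison Srsf5 fell by 2.73 ± 0.11 (limma, adjusted p = 8.45e-05), Srsf6 by 2.22 ± 0.11 (adjusted p = 9.62e-05) and Srsf7 by 1.61 ± 0.097 (adjusted p = 0.000122). Srsf11 was 1.86-fold higher (log2 fold change 0.90) and Snrnp27 3.47-fold higher (1.80 ± 0.073, adjusted p = 8.67e-05). Hnrnpa0 and Snrnp48 rose by 0.87 and 0.81, and Hnrnpk and Snrnp200 fell by 1.42 and 1.31. These 9 genes kept their calls on both scales with any single library left out. Hnrnph1, which binds guanine tracts, was at 34.7 and 41.1 FPKM in control, 20.5 and 17.7 in LPS and 11.4 and 13.2 with Sal-B added, and fell by 1.55 ± 0.14 (adjusted p = 0.000296), a call that also held without any single library. With treated pairs averaged, Srsf5, Srsf6, Srsf7, Srsf11 and Snrnp27 kept their calls on both scales, with adjusted p of 0.0181, 0.0181, 0.0187, 0.044 and 0.0181 as deposited.

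Hnrnpf, a relative of Hnrnph1, was at 97.8 and 74.5 FPKM in control, 57.5 and 53.8 in LPS and 37.7 and 23.8 with Sal-B added, and fell by 1.48 ± 0.24 (limma, adjusted p = 0.00256). Nearly as much of it (49% of windows) as of Sf3b4 also occurs in pseudogenes. Sf3b1, which clamps the branch point, was at 23.4 and 29.4 FPKM in control, 21.4 and 13.1 in LPS and 8.93 and 9.37 with Sal-B added (-1.42 ± 0.24, adjusted p = 0.00287). Sf3a1 was at 20.6 and 17.4 FPKM in control, 11.2 and 12.5 in LPS and 8.67 and 8.42 with Sal-B added (-1.06 ± 0.12, adjusted p = 0.000635). After scaling to the same median the values were -0.74, -0.72 and -0.36. There Hnrnpf lost its call without control replicate 2 or 3, LPS replicate 2 or 3 or LPS plus Sal-B replicate 3 (adjusted p = 0.157, 0.0505, 0.0784, 0.0785 and 0.141), Sf3b1 without control replicate 3 or LPS plus Sal-B replicate 2 or 3 (0.158, 0.135 and 0.123), and Sf3a1 without control replicate 2, LPS replicate 2 or 3 or LPS plus Sal-B replicate 2 or 3 (0.0647, 0.0503, 0.0505, 0.113 and 0.171). With the replicate number as a block, Sf3b1 and Sf3a1 were no longer called at the same median (adjusted p = 0.0601 and 0.0578).

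Among core snRNP genes Snrpb2, whose product belongs to the U2 particle, was at 48.6 and 46.8 FPKM in control, 54.3 and 52.2 in LPS and 59.5 and 61.8 with Sal-B added, and rose by 0.34 ± 0.079 against control (limma, adjusted p = 0.0104). Snrpg and Snrpd2 rose by 0.46 and 0.32 (adjusted p = 0.0295 and 0.0253). On the same-median scale these 3 genes rose by 1.08, 1.21 and 1.04. As deposited Snrpb2 lost its call without LPS plus Sal-B replicate 2 or 3 (adjusted p = 0.065 and 0.0954), Snrpg without LPS replicate 2 or 3 or LPS plus Sal-B replicate 2 or 3 (0.0634, 0.0634, 0.0976 and 0.127), and Snrpd2 without the same libraries (0.0587, 0.0588, 0.155 and 0.0981).

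**Figure D4:**
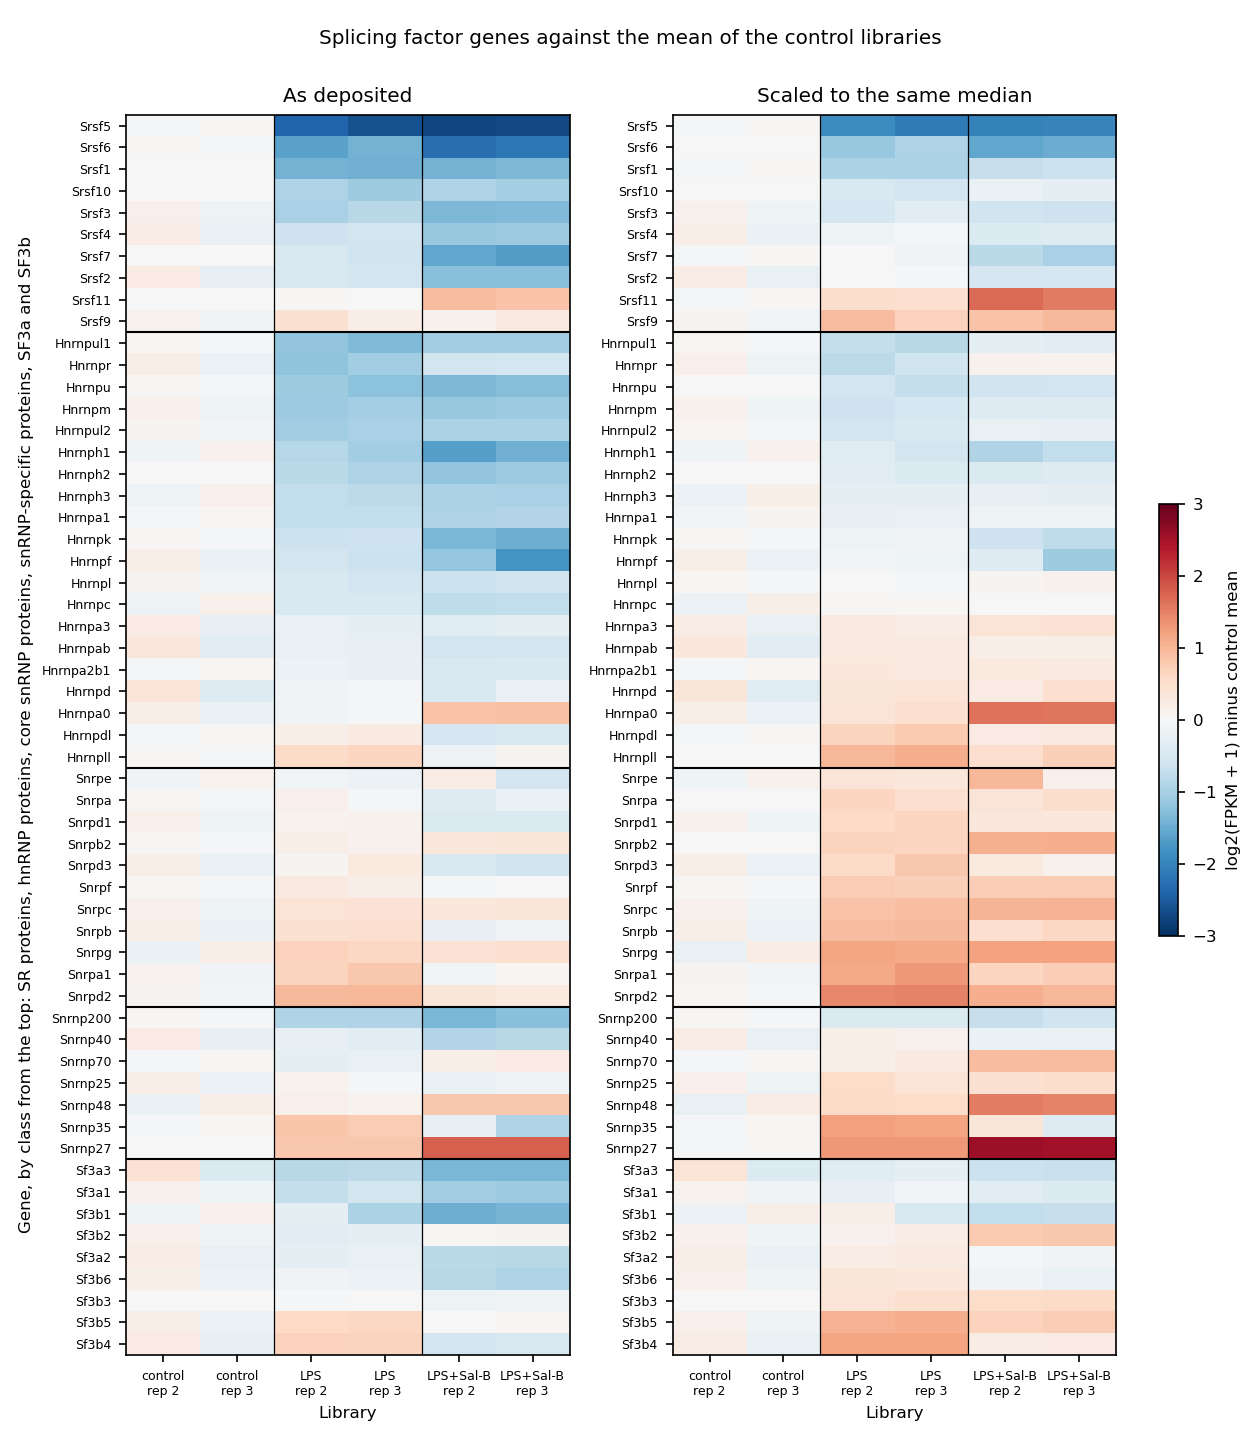
Log2(FPKM + 1) of each of the 57 members (rows, grouped by class and ordered by the change in LPS) minus its mean in the 2 control libraries, in each of the 6 libraries (columns), as deposited on the left and at the same median on the right; blue is lower than control and red higher. The SR protein rows are mostly blue and the core snRNP rows mostly red at the same median, where 5 of 10 SR protein genes fell and 10 of 11 core snRNP genes rose in LPS.

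By particle, the 7 Sm ring genes had a median log2 fold change of 0.23 in LPS as deposited, where 3 rose. At the same median they had 0.74, and 6 rose. The 5 genes of the U1 and U2 particles (Snrnp70, Snrpa, Snrpc, Snrpa1, Snrpb2) had 0.16 as deposited, where 2 rose and 1 fell. At the same median they had 0.65, and 4 rose. All genes tested had medians of -0.40 and 0.01 on these scales. Of them 14.2% rose and 48.9% fell as deposited, and 28.9% and 26.4% at the same median. The 3 genes of the tri-snRNP went different ways, with Snrnp27 up, Snrnp200 down and Snrnp40, of the U5 particle, at -0.29 as deposited and 0.16 at the same median, neither past the threshold. The 3 minor spliceosome genes Snrnp25, Snrnp35 and Snrnp48 all rose in LPS at the same median, and as deposited only Snrnp35 did. At the same median the calls of Snrnp25 and Snrnp48 were lost with any 1 of the 4 LPS and LPS plus Sal-B libraries left out (adjusted p by limma up to 0.129 and 0.107), and that of Snrnp35 without LPS replicate 2, as given above. Of splicing factor 3, the 3 SF3a genes had a median of -0.63 in LPS as deposited and the 6 SF3b genes -0.08.

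Annotation bears on how far these values can be read. In the deposited table, on GRCm38, Srsf5 spans chr12:80945504-80950507 and Srsf6 chr2:162931528-162937121 on the plus strand, Snrpd2 chr7:19149722-19153542 on the plus strand, and Snrnp27 chr6:86675151-86684522, Srsf11 chr3:158010473-158036639 and Hnrnpa0 chr13:58125879-58128556 on the minus strand. In GENCODE M21, on GRCm38, a transcript marked for nonsense-mediated decay was annotated in 9 of 10 SR protein genes, 10 of 20 hnRNP genes, 4 of 11 core snRNP genes, 1 of 7 snRNP-specific genes and 1 of 9 genes of splicing factor 3, in all 43.9% of members against 30.6% of 9990 tested genes. Srsf11 had 3 such transcripts among 19 and Srsf5 1 among 12. The table gives 1 value per gene, so a change in total level and a shift between coding and decay transcripts cannot be told apart. More than 10% of 50-base windows were shared with other genes in 17 members, and none in 20, among them Srsf6, Srsf1, Srsf11, Hnrnpa0, Hnrnpu and Snrnp48. Genes on the same strand, which a stranded kit cannot separate, overlapped 5 members: Snrpa1, Sf3b3, Hnrnpa3, Hnrnpm and Hnrnpul2. Genes on the other strand overlapped 18 members, among them Srsf1, Srsf2, Hnrnpu, Hnrnpk, Hnrnpr, Hnrnpf and Sf3b4. The kit was stranded per the labels, but whether counting used strand is not given in the sources used here, so these levels are uncertain.

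Other splicing genes were listed by complex, and 149 rows of 155 genes were tested, with U2af1l4 on 2 rows. In LPS against control 10 rose and 71 fell as deposited (median log2 fold change -0.38), where 14.2% of all genes tested rose and 48.9% fell. With the medians made equal 41 rose and 30 fell (0.08), beside 28.9% and 26.4%. These shares are the background of each list below. Of 8 tested genes for SR protein kinases and transport, 1 rose and 5 fell as deposited and 1 rose and 1 fell at the same median; Clk3, a kinase of SR proteins, rose by 0.63 ± 0.12 and Srpk2, another, fell by 0.90 ± 0.12 (limma, adjusted p = 0.00599 and 0.00173). Of 13 genes named LSm, a family in which only some products form a ring resembling that of the Sm proteins, 3 rose and 4 fell as deposited. At the same median 8 rose and 1 fell. As deposited Lsm12 rose by 2.07 ± 0.12 (limma, adjusted p = 0.000235). Of 15 genes of the SMN complex and methylosome, which load Sm rings onto small RNAs, 1 rose and 7 fell as deposited, among them Gemin4 (-1.76 ± 0.26, adjusted p = 0.00259), and 3 rose and 3 fell at the same median. Of 23 Prp19 complex and step factor genes 1 rose and 13 fell as deposited, among them Slu7 (-1.49), and 3 rose and 6 fell at the same median. Of 9 helicase genes 5 fell as deposited, among them Ddx42 (-1.38), and 3 rose and 3 fell at the same median. Of 15 tri-snRNP genes 6 fell as deposited, among them Prpf6 (-0.91), while at the same median 4 rose and 1 fell. On 13 rows for 3′ splice site recognition 1 rose and 6 fell as deposited, among them Zrsr1 (-1.88), and 4 rose and 3 fell at the same median. Of 10 exon junction complex genes 1 rose and 2 fell as deposited, among them Pnn (-1.02), while at the same median 7 rose and 1 fell. Of 6 minor spliceosome genes 1 rose and 2 fell as deposited, among them Rnpc3 (-1.22), and 2 rose and 2 fell at the same median. Of 38 other splicing regulators 1 rose and 21 fell as deposited, among them Pspc1 (-1.55), and 7 rose and 9 fell at the same median.

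With Sal-B against LPS, 23 of the 149 rows rose and 39 fell as deposited (median -0.16), where 10.5% of all genes tested rose and 31.8% fell. With the medians made equal 38 rose and 18 fell (0.08), beside 17.6% and 20.2%. The 38 other splicing regulators had 14 higher and 4 lower as deposited and 15 higher and 1 lower at the same median, with a median of 0.18 and 0.41. Rbm25 rose by 1.11 ± 0.11 and Ptbp2, which represses exons, fell by 1.10 ± 0.11 (limma, adjusted p = 0.00227 and 0.00221). Bud31, of the list of Prp19 complex and step factors, fell by 1.15, and of that list 2 rose and 11 fell as deposited and 4 rose and 4 fell at the same median. The helicase gene Dhx15 fell by 1.09, with 2 higher and 3 lower of 9 as deposited and 3 higher and 2 lower at the same median. The LSm gene Lsm10 fell by 1.49, with 3 lower of 13 as deposited and 2 higher and 2 lower at the same median. Snu13, whose product binds the U4 RNA, fell by 0.92, with 1 higher and 4 lower of 15 tri-snRNP genes as deposited and 2 higher and 3 lower at the same median. In LPS plus Sal-B against control 21 of the 149 rows rose and 89 fell as deposited (median -0.56), beside 14% and 58.8% of all genes tested, and 55 rose and 32 fell at the same median (0.13), beside 31.7% and 32%.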

How the data were processed

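The authors deposited 1 table of FPKM values per gene and library. Per the submitters' processing notes, the tools were HISAT2 2.0.5, cutadapt and StringTie, and the genome was GRCm38; how reads that fit several places were counted, and any scaling between libraries, are not given in the sources used here. Per the labels' protocols, libraries were made with a stranded kit after poly(A) selection or rRNA removal, without saying which. Low values of single-transcript genes gave no clear step, so read depth was not recovered and no counting intervals are given.

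Values were taken as log2(FPKM + 1). The 10014 genes at 1 FPKM or more in at least 2 libraries entered a single linear model of all 6 libraries and 3 residual degrees of freedom (R 4.3.3 with limma 3.58.1, trended empirical Bayes, two-sided, Benjamini-Hochberg adjusted p under 0.05 over all genes tested), as deposited and with each library scaled to the same median of tested genes. The code was tested on simulated data. Named are up to 4 members a class and comparison with the largest change at the same median among those called in the same direction on both scales, the 3 with the highest mean level, and up to 2 genes of each other list; further members are named as examples chosen after their values were seen, and a listed gene that this rule names is not reported here. The members and lists were chosen with earlier results of these data known. Alternatives changed the scaling, pseudocount, filter, replicate block, groups in the model, trend, the averaging of treated pairs and the libraries included. Annotation came from GENCODE M21, where 50 of 57 members had identical coordinates, and promoters from RefSeq.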

Additional observations from a re-analysis of the deposited data

How the results depend on the processing

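The members that the naming rule took for their change, which had to be called in the same direction on both scales, kept the sign of that change under every alternative run. Others named in the report did not, with examples given here. Hnrnpdl, Hnrnpa2b1 and Snrpd1 in LPS plus Sal-B against control differed in sign between the scales. So did Snrnp40 and Hnrnpd in LPS against control and Snrpg with Sal-B against LPS. With 1 library left out, Srsf10 with Sal-B against LPS, at 0.04 as deposited, reached -0.027. At the same median such fits gave -0.23 to 0.19 for Srsf2 in LPS against control. They gave -0.12 to 0.11 for Srsf5 with Sal-B against LPS. A change of pseudocount to 0.1, no filter or no trend left each count of members within 1.5 times. The scaling and the averaging of treated pairs both moved counts. With the averaging, all spread came from the control libraries, whose replicates differed most. Its counts for LPS plus Sal-B against LPS therefore hold no spread of either group compared. In the order higher and lower, scaling to the same total without mitochondrially encoded genes gave 3 and 39 members in LPS against control. Of all 10014 genes tested it gave 789 and 6771. With Sal-B against LPS it gave 12 and 7 members, beside 2126 and 1295 of all genes tested. Quantile normalization gave 9 and 10 members with Sal-B against LPS, beside 1593 and 1653 of all genes tested. With Sal-B against control it gave 15 and 26, beside 2928 and 3273. Same-median scaling turned 10 and 24 into 23 and 13, 6 and 24 into 10 and 11, and 7 and 33 into 22 and 16. A model of only the groups compared gave 16 and 21 at the same median for LPS plus Sal-B against LPS. With each treated pair averaged to 1 sample, which leaves fewer samples, LPS against control had 0 and 5 members as deposited and 4 and 1 at the same median, with 4 and 15 as deposited at an unadjusted p under 0.05 by limma. LPS plus Sal-B against LPS had 0 and 0 on both scales, and LPS plus Sal-B against control had 2 and 19 as deposited and 10 and 3 at the same median.

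With 1 library left out at a time, members higher as deposited ran from 4 to 15 and lower at the same median from 8 to 16 for LPS against control. With Sal-B against LPS they ran from 2 to 9 higher and 5 to 34 lower as deposited, and from 4 to 16 higher and 2 to 21 lower at the same median. For LPS plus Sal-B against control they ran from 4 to 11 higher as deposited and 10 to 21 lower at the same median.

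Replicate numbers did not pair the libraries: deviations of libraries with the same number correlated at 0.014, 0.004 and 0.035. With the replicate block the counts as deposited were 8 and 24 in LPS against control, 6 and 20 with Sal-B against LPS, and 7 and 33 with Sal-B against control; at the same median they were 22 and 12, 9 and 12, and 19 and 14. Of the named calls Snrpb as deposited in LPS against control was lost under the block (adjusted p = 0.0518), beside Sf3a1 and Sf3b1 as given above.

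With 2 libraries a group and read depth unknown, a member that missed the threshold is not shown to be unchanged.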

Other observations

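In 5 places 2 members lie within 500 kb of each other. Their log2 fold changes are given as deposited unless stated. On chromosome 6 Snrpg and Snrnp27, 295.8 kb apart, rose in LPS by 0.66 and 0.80 on the log2 scale, and with Sal-B against LPS they had -0.20 and 0.99. On chromosome 13 Hnrnpa0 and Hnrnpk, 262.6 kb apart, moved apart with Sal-B against LPS (0.94 and -0.79). On chromosome 17 Hnrnpll and Srsf7, 137.8 kb apart, had 0.62 and -0.54 in LPS and -0.65 and -1.07 with Sal-B. On chromosome 4 Srsf10 and Hnrnpr, 441.0 kb apart, had -0.99 and -1.12 in LPS and 0.04 and 0.59 with Sal-B. On chromosome 5 Hnrnpd and Hnrnpdl, 54.6 kb apart, had -0.08 and 0.23 in LPS and -0.24 and -0.71 with Sal-B. At the same median this pair had 0.39 and 0.72 in LPS and -0.01 and -0.47 with Sal-B against LPS. There Snrpg had 0.05 with Sal-B against LPS, and Srsf7 had -0.05 in LPS. Apart from Hnrnpd in LPS and Snrpg with Sal-B, all kept the signs given above.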
